A study of Mus musculus with 12 samples.

Results

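Small nucleolar RNAs (snoRNAs) and small Cajal body RNAs (scaRNAs) were followed through TRAP libraries of the mouse choroid plexus (ChP). The rows were chosen by symbol alone, as those whose name starts with Snord, Snora or Scarna and a digit. The rule found 119 of 24327 rows: 74 box C/D snoRNAs (Snord), 36 H/ACA snoRNAs (Snora) and 9 Cajal body RNAs (Scarna). Of these, 24 were above 0 in at least 1 library and 95 were listed at 0 in every library.

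All mice were FoxJ1:cre x bacTRAP (EGFP:L10a) males, heterozygous for both transgenes, fed freely and given an age of 60 days by the labels and 8 weeks by the methods. The Foxj1 promoter drives Cre in ciliated epithelium, so that the ribosomal protein RPL10A carried EGFP in ChP epithelial cells. Lateral ventricle ChP of 3 mice was pooled for each library, at 9 a.m. in the light phase or at 9 p.m. in the dark phase, without any treatment. RNA pulled down with the tagged ribosome gave the TRAP libraries and the unbound RNA gave the supernatant libraries, with 3 libraries in each of the 4 groups and 12 in all. The labels give TRAP and supernatant libraries of one time and number the same animal number, so the 12 libraries are bound and unbound fractions of 6 pools. Levels are the FPKM the authors deposited (fragments counted on a gene, divided by its length and by the mapped fragments of the library), from which no read depth can be read. FPKM divides by gene length, and the lengths behind the deposited values are not known. Annotated lengths of the members ran from 64 to 414 nt in GENCODE and from 28 to 275 nt in RefSeq. A read counts for more in a shorter gene. Levels of different members are therefore no measure of their relative amounts.

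A snoRNA guides a set of proteins to a base of another RNA. Box C/D RNAs direct 2'-O-methylation and H/ACA RNAs direct pseudouridylation, mostly of ribosomal RNA in the nucleolus, and scaRNAs do the same for spliceosomal RNAs in the Cajal body. In mammals most of them are cut out of introns of a host gene, often one that codes for a ribosomal protein or a translation factor, and a few act in cleavage of the ribosomal RNA precursor.

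The sequences of 6 members are printed because the results turn on them. These are the 3 seen in the most libraries (Scarna13, Snord22 and Snora35), the 2 with the highest single values (Snord91a and Snord104), and Snord8. Snord8 was among the members seen in supernatant libraries only. The sequences are the GENCODE M21 transcripts on GRCm38, the assembly of mm10, 5′ to 3′. Capitals mark the C box TGATGA within the first 25 bases, the D box CTGA within the last 18 bases, and, in Scarna13 and Snora35, the ACA that ends 3 bases before the 3′ end.
Scarna13: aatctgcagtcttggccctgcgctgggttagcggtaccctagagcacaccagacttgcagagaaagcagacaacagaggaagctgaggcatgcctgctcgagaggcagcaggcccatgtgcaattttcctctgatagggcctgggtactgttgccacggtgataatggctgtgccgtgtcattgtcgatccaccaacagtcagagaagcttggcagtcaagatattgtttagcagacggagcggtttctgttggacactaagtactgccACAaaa
Snora35: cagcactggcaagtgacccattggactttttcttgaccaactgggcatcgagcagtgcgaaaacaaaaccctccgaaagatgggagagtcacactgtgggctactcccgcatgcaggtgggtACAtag
Snord22: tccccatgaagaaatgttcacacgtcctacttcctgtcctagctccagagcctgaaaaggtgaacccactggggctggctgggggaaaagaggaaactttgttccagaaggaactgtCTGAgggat
Snord8: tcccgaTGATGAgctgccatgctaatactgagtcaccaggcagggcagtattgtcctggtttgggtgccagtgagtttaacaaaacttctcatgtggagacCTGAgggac
Snord91a: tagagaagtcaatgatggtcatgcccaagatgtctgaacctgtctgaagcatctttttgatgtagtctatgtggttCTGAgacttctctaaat
Snord104: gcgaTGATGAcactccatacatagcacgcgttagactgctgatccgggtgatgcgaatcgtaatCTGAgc
Scarna13 lies at chr12:105031075-105031349 on the minus strand, within the noncoding gene Snhg10, and Snora35 at chrX:146994381-146994508 on the plus strand, in an intron of the serotonin 2C receptor gene Htr2c. Snord22 lies at chr19:8725866-8725991 on the plus strand within Snhg1, where 5 of 18 host transcripts have an exon over it. Snord8 lies at chr14:52209785-52209894 on the minus strand in an intron of Chd8, with the gene Gm26590 on the other strand. Snord91a lies at chr11:74905424-74905516 on the plus strand in an intron of Tsr1. Snord104 lies at chr11:106500993-106501062 on the plus strand and has no host gene in this annotation.

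The class letters could be found in most of the 118 members matched to the annotation, on the sense strand. CTGA stood in the last 18 bases of 70 of 73 box C/D RNAs (95.9%) and of 3 of 36 H/ACA RNAs (8.33%). TGATGA stood in the first 25 bases of 46 of 73 box C/D RNAs (63%) and of 0 of 36 H/ACA RNAs. ACA at the 3′ end was found in 30 of 36 H/ACA RNAs (83.3%) and in 0 of 73 box C/D RNAs. The Cajal body RNAs were mixed, with TGATGA in 4 of 9 and the ACA in 2 of 9. Among box C/D members the CTGA was held by all 13 above 0 and by 57 of 60 at 0, and the TGATGA by 10 of 13 above 0 and by 36 of 60 at 0.

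Few members were seen, and most of those in a single library. Of the 24 members above 0, 14 were above 0 in 1 library, 4 in 2, 3 in 3 and 3 in 4 or more, and none in all 12. Over members and libraries, 52 of 1428 values (3.64%) were above 0, and 11 of the 52 belonged to Scarna13. The share of rows above 0 in any library was 17.6% for box C/D, 19.4% for H/ACA (7 of 36) and 44.4% for Cajal body RNAs (4 of 9). MicroRNA gene rows had a lower share, 4.22% (49 of 1161), and the other 23047 rows a higher one, 62.9%. A listed 0 does not show that a gene was silent, since Fbl, the methyltransferase of every box C/D particle, was itself listed at 0 in 9 of the 12 libraries.

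**Figure D1:**
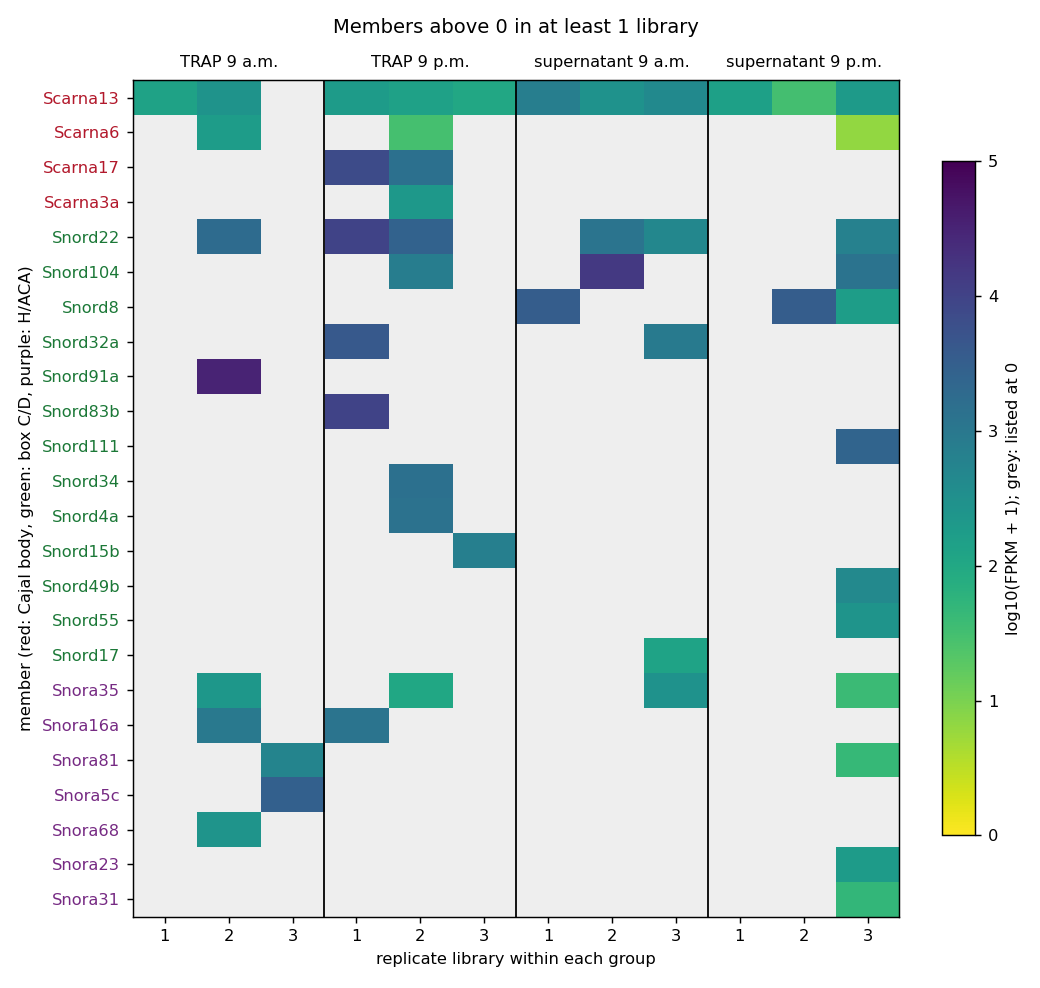
Level of the 24 members above 0 in each of the 12 libraries, as log10(FPKM + 1), with 3 replicate libraries per group along the x axis and members by class along the y axis. Grey cells are listed at 0. Scarna13 fills 11 of 12 cells, and 14 members fill 1 cell each.

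The number of members above 0 varied widely among libraries of one group. TRAP libraries of 9 a.m. held 1, 7 and 2 members above 0 (3.33 ± 3.21, SD, n = 3) and those of 9 p.m. held 6, 9 and 2 (5.67 ± 3.51). Supernatant libraries of 9 a.m. held 2, 3 and 5 (3.33 ± 1.53) and those of 9 p.m. held 1, 2 and 12 (5 ± 6.08). The ranges of all 4 groups overlapped. In such pooled tissue, fewer cells of a type and less RNA per cell cannot be told apart. Both fractions contributed: 17 members were above 0 in TRAP, 14 in supernatant and 7 in both.

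The number of members tended to be higher in libraries where more genes were seen (Spearman's rho = 0.50, Pearson's r = 0.73, n = 12 libraries). The 4 libraries with the most genes above an FPKM of 1 (9883 to 10540 genes) were one of each group: TRAP 9 a.m. replicate 2, TRAP 9 p.m. replicate 2, and replicate 3 of both supernatant groups. They held 5 to 12 members each and 33 of the 52 values above 0, and 13 members were above 0 in these 4 alone. The other 8 libraries (6639 to 8789 genes) held 1 to 6 members each and 19 values, and 3 members were above 0 in them alone. Among these 8, the library with 8789 genes held 1 member and the library with 7711 genes held 6. The part of library yield in these differences was not tested, and depth is unknown.

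**Figure D2:**
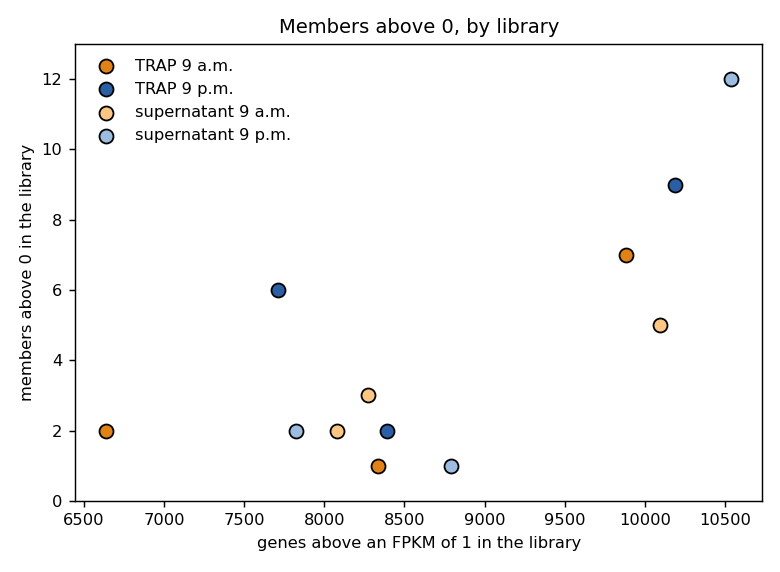
Members above 0 (y axis, number) against genes above an FPKM of 1 (x axis, number) in each of the 12 libraries, coloured by group. The supernatant library of 9 p.m. with 10540 genes holds 12 members, and the 8 libraries with the fewest genes hold 1 to 6 each.

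The summed level of the members was set by single rows. It ran from 133 to 36010 FPKM over the libraries, or from 0.0125% to 4.37% of all FPKM, and the highest member alone held 30.8% to 100% of the sum. Both extremes were TRAP libraries of 9 a.m.: replicate 1 held Scarna13 only, and replicate 2 held Snord91a at 32311 FPKM.

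Scarna13 was the member seen most widely. Its human counterpart, U93, carries tandem H/ACA domains and is a guide for spliceosomal RNAs. In TRAP libraries of 9 a.m. it was at 133, 264 and 0 FPKM. In TRAP libraries of 9 p.m. it was at 182, 134 and 97.8 FPKM (138 ± 42.4, SD, n = 3). These 2 groups overlapped.

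In the supernatant Scarna13 was at 734, 288 and 427 FPKM at 9 a.m. (483 ± 228, SD, n = 3) and at 144, 29.98 and 187 FPKM at 9 p.m. (120 ± 81.1). All supernatant libraries of 9 a.m. were above all those of 9 p.m. and above all TRAP libraries of 9 a.m. On the scale of log2(FPKM + 1) it was lower at 9 p.m. by a log2 fold change of -2.25 (SE 0.59), and this did not pass the test over all genes (limma, unadjusted p = 0.00256, adjusted p = 0.970). TRAP against supernatant at 9 a.m. gave a log2 fold change of -3.77 (SE 1.498; limma, adjusted p = 0.886), and -1.25 without the TRAP library in which it was listed at 0. At 9 p.m. the fractions differed by 0.51 (SE 0.60; adjusted p = 0.843), and the TRAP and supernatant values overlapped. The change between times in TRAP less that in supernatant was 4.29 (SE 2.05), which also missed the threshold (limma, adjusted p = 0.988). Scarna13 shares a run of 50 bases or more with the microRNA gene Mir3069, a separate row. Mir3069 was at 4252 FPKM in supernatant 9 a.m. replicate 2, at 3402 FPKM in TRAP 9 p.m. replicate 2 and listed at 0 elsewhere. How the counting divided reads between the 2 genes is not known.

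Snord22 was the box C/D RNA seen in the most libraries, 6 of 12. U22 is needed for processing of 18S ribosomal RNA in Xenopus, and is not known as a guide of methylation. In TRAP it was at 1826 FPKM in replicate 2 of 9 a.m. and at 9925 and 2708 FPKM in replicates 1 and 2 of 9 p.m. In supernatant it was at 1180 and 477 FPKM in replicates 2 and 3 of 9 a.m. and at 639 FPKM in replicate 3 of 9 p.m., and it was listed at 0 in the other 6 libraries. Every group thus held libraries above 0 and at 0, and the groups overlapped in each comparison. The largest of its differences between fractions, 5.12 at 9 p.m. (log2 scale, SE 3.23), was not called (limma, adjusted p = 0.818).

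Snora35, an H/ACA RNA with no known target base, is made from an intron of Htr2c, a gene of high level in ChP epithelium. It was at 227 FPKM in TRAP 9 a.m. replicate 2, 103 FPKM in TRAP 9 p.m. replicate 2, 276 FPKM in supernatant 9 a.m. replicate 3 and 38.2 FPKM in supernatant 9 p.m. replicate 3. These were exactly the 4 libraries with the most genes above an FPKM of 1, and it was listed at 0 in the other 8. Its log2 fold changes between groups ran from -0.94 (SE 2.15) for supernatant 9 p.m. against 9 a.m. to 0.47 (SE 2.0025) for the fractions at 9 p.m., none of them past the threshold of limma (adjusted p = 0.989 and 0.960).

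The host genes of these 3 members were seen in fewer libraries than the member (Snhg10 and Snhg1) or in all 12 (Htr2c). Snhg10 was listed at 0 in 8 of the 11 libraries with Scarna13, and was at 27.6 FPKM in supernatant 9 a.m. replicate 3, 23.2 FPKM in supernatant 9 p.m. replicate 3 and 5.01 FPKM in TRAP 9 p.m. replicate 2. Snhg1 was listed at 0 in 5 of the 6 libraries with Snord22, and was above 0 only in TRAP 9 a.m. replicate 2 (6.21 FPKM). Htr2c was between 78.7 and 200 FPKM in all 12 libraries, with a mean of 136 where Snora35 was above 0 and of 134 where it was listed at 0.

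**Figure D3:**
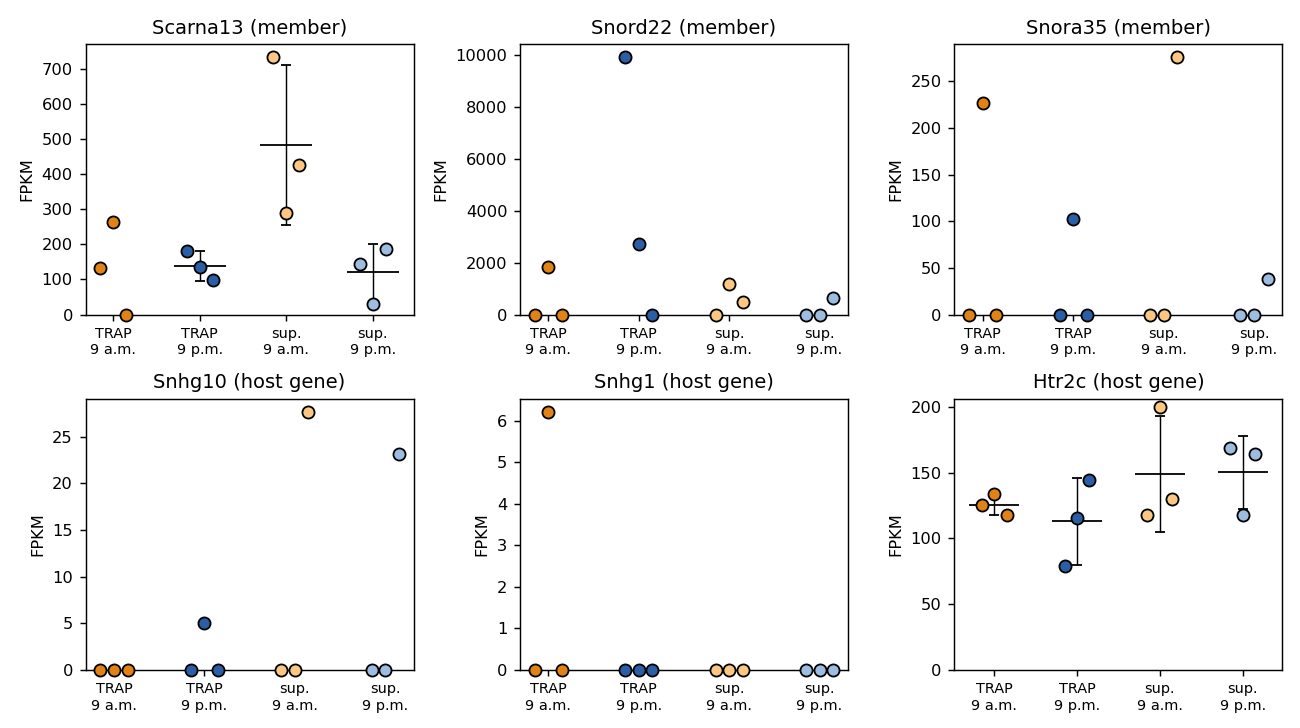
FPKM of Scarna13, Snord22 and Snora35 (top row) and of their host genes Snhg10, Snhg1 and Htr2c (bottom row) in the 4 groups, 1 point per library. Lines are the mean ± SD (n = 3), drawn only for groups with no library at 0. Scarna13 is above 0 in 11 libraries while Snhg10 is above 0 in 3, and Htr2c is above 0 in all 12.

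The highest single values belonged to box C/D RNAs seen in few libraries. Snord91a, from an intron of Tsr1, a factor of small subunit assembly, was at 32311 FPKM in TRAP 9 a.m. replicate 2 and listed at 0 in the other 11. Snord104 was at 14864 FPKM in supernatant 9 a.m. replicate 2, 1256 FPKM in supernatant 9 p.m. replicate 3 and 752 FPKM in TRAP 9 p.m. replicate 2. Snord83b, from the gene of ribosomal protein RPL3, was at 10074 FPKM in TRAP 9 p.m. replicate 1 alone. In none of these did a second library of the same group show the member.

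Other box C/D RNAs came from genes of the translation machinery and of splicing. Snord32a, 1 of 4 members within the ribosomal protein gene Rpl13a, was at 4071 FPKM in TRAP 9 p.m. replicate 1 and 878 FPKM in supernatant 9 a.m. replicate 3. Its neighbour Snord34 was at 1398 FPKM in TRAP 9 p.m. replicate 2 alone, and Snord33 and Snord35a of the same gene were listed at 0 throughout, although Rpl13a itself was above 0 in every library (92.1 to 369 FPKM). Snord111, from within the splicing factor gene Sf3b3, was at 2400 FPKM in supernatant 9 p.m. replicate 3 alone. Of all members, 32 lie in ribosomal protein genes and 7 of these were above 0.

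Snord8 was seen in supernatant only, as were Snord17, Snord49b, Snord55, Snord111, Snora23 and Snora31, each of these in 1 library. Snord8 was at 3383 FPKM in replicate 1 of 9 a.m. and at 3295 and 165 FPKM in replicates 2 and 3 of 9 p.m. It was listed at 0 in the other 3 supernatant libraries and in all 6 TRAP libraries. Since it was listed at 0 in all TRAP libraries no fold can be given. The difference was not called over both times (limma, unadjusted p = 0.0196, adjusted p = 0.576) or at 9 p.m. (adjusted p = 0.818), and the fractions overlapped at 0.

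Scarna17 was seen in TRAP at 9 p.m. only, as were Snord4a, Snord15b, Snord34, Snord83b and Scarna3a, each of these in 1 library. The human counterpart of Scarna17, U91, is a box C/D guide for spliceosomal RNA. Scarna17 was at 7228 and 1453 FPKM in replicates 1 and 2 and listed at 0 in replicate 3 and in the other 9 libraries. With all libraries it was not called in TRAP between times (limma, unadjusted p = 0.00836, adjusted p = 0.941), between fractions at 9 p.m. (adjusted p = 0.818) or as a difference of the 2 changes (adjusted p = 0.988). Without TRAP 9 p.m. replicate 3, the library at 0, it was the 1 member called in each of these comparisons, with adjusted p of 0.000152, 0.000132 and 0.00951. Leaving out that library keeps only the 2 high values against groups at 0, so these p-values follow from the choice of library and support nothing about Scarna17. It shares a run of 50 bases, the read length, with the gene Gm25443, so reads of the 2 cannot be told apart over that run. Of the 24 members above 0, 7 share such a run with a gene other than their host, and 3 have a gene on the other strand.

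The other Cajal body RNAs were rarer. Scarna6, known as U88 in human and made from an intron of the autophagy gene Atg16l1, was at 174 FPKM in TRAP 9 a.m. replicate 2, 28.3 FPKM in TRAP 9 p.m. replicate 2 and 5.33 FPKM in supernatant 9 p.m. replicate 3. The last is the lowest value of any member above 0. Scarna3a was at 212 FPKM in TRAP 9 p.m. replicate 2 alone. Scarna2, Scarna3b, Scarna8, Scarna9 and Scarna10 were listed at 0 in all 12 libraries.

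The H/ACA RNAs other than Snora35 were seen in 1 or 2 libraries each. Snora5c, from the Tbrg4 gene, was at 2946 FPKM in TRAP 9 a.m. replicate 3 alone. Snora16a, from within the noncoding gene Snhg12, was at 950 FPKM in TRAP 9 a.m. replicate 2 and 1198 FPKM in TRAP 9 p.m. replicate 1. Snhg12 was above 0 in both (8.96 and 22.3 FPKM). It was also above 0 in TRAP 9 p.m. replicate 2 (20.7 FPKM) and in supernatant 9 p.m. replicates 2 and 3 (21.5 and 1.15 FPKM), where Snora16a was listed at 0. Snora81, from the initiation factor gene Eif4a2, was at 544 FPKM in TRAP 9 a.m. replicate 3 and 44.3 FPKM in supernatant 9 p.m. replicate 3. Snora68 was at 258 FPKM in TRAP 9 a.m. replicate 2 alone, and Snora23 at 179 FPKM in supernatant 9 p.m. replicate 3 alone. The remaining 6 members above 0 (Snord4a, Snord15b, Snord17, Snord49b, Snord55 and Snora31) were each seen in 1 library, at 48.9 to 1283 FPKM.

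Among the members named here for a role in ribosomal RNA cleavage or another special role, all but Snord22 were at 0. Snord118 (U8), needed for processing of 28S ribosomal RNA in Xenopus, and the copies Snord14a, Snord14c and Snord14d of U14, needed for 18S processing in yeast, were listed at 0 in all libraries. The host of the latter 2 copies, the chaperone gene Hspa8, was above 0 in every library (20.3 to 266 FPKM). Snord116 and the copies Snord116l1 and Snord116l2, known from neurons and from the Prader-Willi region in human, were listed at 0 too. Snord116l1 and Snord116l2 each share a run of 50 bases with 67 genes other than their host, so reads over that run cannot be told apart. Their host Snhg14 was above 0 in 4 libraries, at up to 6.30 FPKM. Of 10 neuron markers, the sum was 2.25 to 36.5 FPKM per library, where the 10 ChP epithelial markers, all above 0 in every library, summed to 38938 to 72024 FPKM. Any link between the marker levels and the members at 0 was not tested. No row for U3, U13, Snora73a, Snora73b or Snord115 was among the members found by symbol.

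By GENCODE lengths, a larger share of the few long members was seen than of the shorter ones. RefSeq lengths can differ widely, as for Scarna2 (414 nt in GENCODE, 61 nt in RefSeq) and Scarna10 (325 and 71 nt), both at 0. The shares by RefSeq length were not computed. Of the 37 members under 80 nt 6 were above 0 (16.2%), of 27 from 80 to 99 nt 4 (14.8%) and of 41 from 100 to under 140 nt 7 (17.1%). Of the 8 members from 140 to under 200 nt 4 were above 0 (50%), and of the 5 of 200 nt or more 3 (60%). Among the 24 above 0, length and highest FPKM ran against each other (Spearman's rho = -0.54 across members, which share libraries and are not replicates). With RefSeq lengths rho was -0.56. The median highest FPKM was 1340 for members under 80 nt, 7072 from 80 to 99 nt, 1198 from 100 to under 140 nt, 378 from 140 to under 200 nt and 174 for those of 200 nt or more, so that it did not fall steadily with length. Since FPKM divides by length, a read counts for more in a shorter gene, and the part of this in the levels was not tested.

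**Figure D4:**
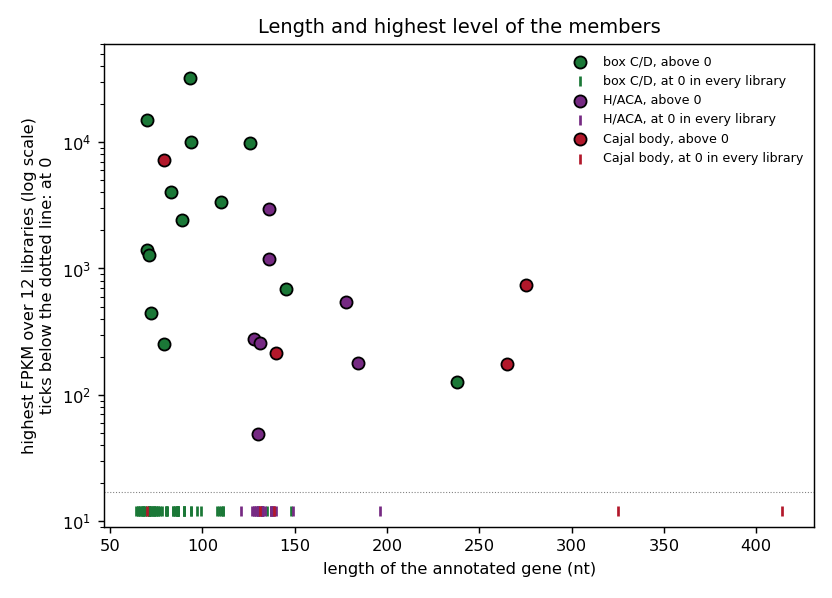
Highest FPKM over the 12 libraries (y axis, log scale) against GENCODE length in nt (x axis), coloured by class, for the 118 members with a length. Ticks under the dotted line are the members at 0 in every library. The 3 members above 0 of 200 nt or more peak between 126 and 734 FPKM, below the 10074 and 32311 FPKM of 2 members of 80 to 99 nt.

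By annotation, 112 of the 118 members lie within a host gene on the same strand, in 84 hosts of which 65 code for proteins. Hosts with a member above 0 were not set apart by their own level: the 20 in the table had a median mean FPKM of 14.3 (0.517 to 224), and the 57 whose members were all at 0 had 12.3 (0 to 262). For 16 of 21 members above 0 the mean FPKM of the host was higher in libraries with the member than in those without. Snord111 was seen in the library where Sf3b3 was highest (25.8 FPKM), and Snora31 where the host Tpt1 was highest (79.1 FPKM). Against this, Snord8 was seen at its peak in the library where Chd8 was lowest (11.1 FPKM). An exon of some host transcript overlaps 7 of the 24 members above 0 and 46 of the 94 at 0, in part or in full. Reads that lie inside such an overlap cannot be assigned to the transcript or to the member. No host was called by limma in any of the 6 comparisons, in which 62 to 66 hosts were tested.

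The design asks whether RNA bound to tagged ribosomes and unbound RNA change between day and night, and no member was called in any comparison. Genes were tested on log2(FPKM + 1) with limma when their mean FPKM was above 1 over the libraries compared, and a call needed an adjusted p under 0.05 and a log2 fold change beyond 0.4 between times or 0.3 between fractions. The test called few genes of any kind. Its most were 12 of 11156 genes, between fractions over both times. Between times it called 0 of 10563 genes in TRAP and 1 of 11075 in supernatant, so the lack of a called member there says little about the members. The study used another test between times, CuffDiff, and with it reported many differing transcripts in TRAP. A member that passed the filter through 1 library had to differ, so the counts over members tested are a description.

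In TRAP, 9 p.m. against 9 a.m., 17 members were tested and 0 called, where 0% of all 10563 genes tested were called, and 1 member (Scarna17) had an unadjusted p under 0.05, where 418 genes did. No member had groups that did not overlap, where 8.63% of all genes tested did. In supernatant, 9 p.m. against 9 a.m., 13 members were tested and 0 called, where 0.00903% of 11075 genes were. Scarna13 alone had an unadjusted p under 0.05, among 363 genes, and alone had groups that did not overlap, where 8.7% of all genes tested did.

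In TRAP against supernatant at 9 a.m., 13 members were tested and 0 called, where 0.0463% of 10796 genes were. Scarna13 was the 1 member with an unadjusted p under 0.05 (486 genes) and with groups that did not overlap (10.1% of all genes). At 9 p.m., 20 members were tested and 0 called, where 0.0275% of 10924 genes were, with 2 members, Scarna17 and Snord8, at an unadjusted p under 0.05 (620 genes). None had groups that did not overlap, where 11.9% of all genes did.

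Over both times, 24 members were tested between fractions and 0 called, where 0.108% of 11156 genes were (12 genes, and 6 with the shared pool as a replicate block). Snord8 and Scarna17 had an unadjusted p under 0.05 (861 genes), and no member had groups that did not overlap, where 1.03% of all genes did. For the difference between the changes of time in TRAP and in supernatant, 24 members were tested and 0 called, where 0.00896% of genes were (1 gene, and 2 with the pool as a replicate block), and Scarna17 had an unadjusted p under 0.05 (429 genes). Over all 119 members the median difference on the log2 scale was 0 in each of the comparisons of 2 groups, since 95 to 106 members were equal at 0 on both sides. Over the members that passed the filter the median log2 fold change was 2.58 and 1.83 for the times in TRAP and supernatant, where that of all genes was 0.16 and 0.03. For the fractions it was -0.09 at 9 a.m., 0.62 at 9 p.m. and 0.89 over both times, where that of all genes was -0.20, -0.07 and -0.13, and for the difference of the changes it was 0.34 against 0.11. These medians are set by the members that passed through 1 library, and leaving out 1 library turned the sign of 4 of the 6, as for supernatant times (-2.74 to 2.04).

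The mRNAs of the proteins that bind these RNAs varied widely among libraries. Box C/D RNAs are bound by FBL, NOP56, NOP58 and SNU13 (row Nhp2l1), and H/ACA RNAs by the pseudouridine synthase DKC1 with NOP10, NHP2 and GAR1. Fbl was at 20.3 FPKM in TRAP 9 a.m. replicate 1, at 6.03 and 4.95 FPKM in supernatant 9 a.m. replicates 2 and 3, and listed at 0 in the others. Nop58 was above 0 in all 12 libraries, between 2.36 and 31.4 FPKM, and its groups overlapped. Nop10 had the highest mean of the 8 and was above 0 in all 12 libraries, between 0.611 and 90.2 FPKM. Dkc1 was above 0 in 11 libraries and reached 21.4 FPKM in supernatant 9 p.m. replicate 2. None of the 8 core genes was called by limma in any comparison, and their median log2 fold change between times was 0.38 in TRAP (all genes 0.16) and -0.65 in supernatant (all genes 0.03).

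**Figure D5:**
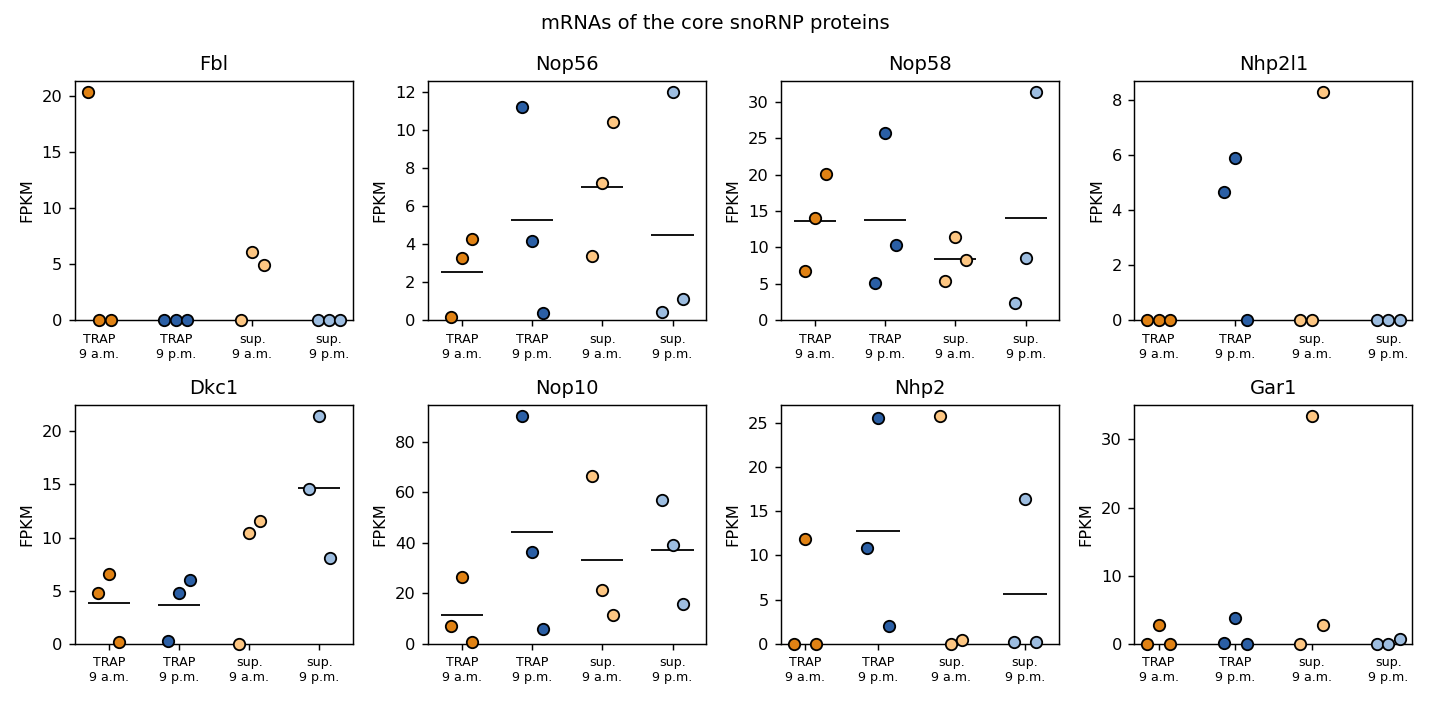
FPKM (y axis) of the 8 core snoRNP protein genes in the 4 groups, 1 point per library, with the mean (n = 3) as a line for groups with no library at 0. Fbl is above 0 in 3 libraries and Nop58 in all 12, and none of the 8 genes was called between groups.

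Other genes of the pathway gave the same count of 0 calls in each of the 6 comparisons. These were 14 genes of snoRNP assembly, 4 of the Cajal body, 7 of 3′ trimming and decay, 10 partners of U3 and 14 noncoding host genes. Among the Cajal body genes, coilin (Coil) had the lowest p, with a change of time in TRAP less that in supernatant of 4.77 on the log2 scale (SE 1.33; limma, adjusted p = 0.988). Among the partners of U3, Nop14 was lower in TRAP than in supernatant at 9 a.m. by a log2 fold change of -1.81 (SE 0.55; adjusted p = 0.886), with no overlap of the groups. Some structured or nuclear RNAs outside these classes did pass: of 5 tested, Malat1, Rpph1 and Rprl3 fell in TRAP against supernatant at 9 a.m., by log2 fold changes of -3.66, -4.90 and -7.41 (limma, adjusted p = 1.96e-05, 2.29e-05 and 0.0106). At 9 p.m. Malat1 alone was called (-4.07, adjusted p = 0.000612), Rmrp was called at neither time (-0.08 at both), and Neat1 (-1.999 and -2.45) was not called either. Rpph1 is the RNA of RNase P and was above 0 in all 12 libraries, unlike every snoRNA and scaRNA of the table.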

How the data were processed

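The 12 libraries, groups and replicate numbers came from the sample labels, and ages, pools and light cycle from the labels and methods. The authors sequenced SMARTer Pico libraries with ribodepletion as single-end reads of 50 nt, aligned them to mm10 with STAR 2.4.0 and deposited FPKM per gene from Cuffquant. For the Cufflinks version, the annotation and the strand setting the entry is not given in the sources used here. Reads of a member, its host and antisense genes can therefore not be told apart. Without counts the depth is unknown, and no counting intervals were computed. FPKM was used as deposited, after 27 of 24354 rows with names turned into dates were left out.

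By the methods each library of a group came from its own pool of mice, and p-values between times measure the spread between these pools. In the fits between fractions and of the difference of the changes, TRAP and supernatant libraries of the same pool entered as if independent. Those p-values therefore ignore the pairing. Comparisons used limma 3.58.1 in R 4.3.3 on log2(FPKM + 1), with empirical Bayes moderation along an intensity trend. Genes entered a fit when their FPKM averaged above 1 over its libraries, and p-values were adjusted by Benjamini-Hochberg over all genes tested. Thresholds followed the methods of the study. The labels pair TRAP and supernatant libraries of one time and number, whose deviations from the group means did not run together (correlations of -0.0751 to -0.0144). As the methods name no pairing, fits between fractions had no such term, and a replicate block was an alternative. A fold change on this scale understates that of low genes.

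Members were matched by symbol to GENCODE M21 on GRCm38 (118 of 119, Snord116 excepted) for position, host, length and sequence. A second set of lengths came from RefSeq. Hosts are genes on the same strand that span the member. A shared run means any run of 50 bases of the member, or of its reverse complement, found in a transcript of the other gene. Members, lists and tests were chosen with earlier results of these data known. Named with values were the 8 box C/D, 6 H/ACA and 4 Cajal body members of highest mean FPKM, members called in any comparison, the 3 of lowest p in each, members with special roles, and hosts. Alternatives changed the pseudocount, filter, scaling, variance model, libraries in the fit, replicate block and each library in turn. Figures were made in Python 3.11.15 (matplotlib 3.10.9).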

Additional observations from a re-analysis of the deposited data

How the results depend on the processing

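With every library kept, no member was called under any of the 58 alternatives, which changed the pseudocount to 0.1, the filter to none or to a mean FPKM above 5, the scaling, the variance model, the libraries in the fit or the replicate block. Leaving out each library in turn gave 0 to 1 member called for TRAP 9 p.m. against 9 a.m., for the fractions at 9 p.m. and for the difference of the changes, and 0 in the other 3 comparisons. The 1 was Scarna17 without TRAP 9 p.m. replicate 3. The median log2 fold change over members tested depended on single libraries: it ran from -2.74 to 2.04 for supernatant times, from -3.26 to 2.61 for the fractions at 9 a.m., from -1.76 to 3.30 at 9 p.m., and from -1.88 to 2.86 for the difference of the changes. Of 312 alternatives for single named members, 3 passed the threshold and 0 changed direction. A member listed at 0 throughout 1 of the groups compared cannot change direction, so the 0 is no measure of stability for such members. The fold change of Scarna13 between fractions at 9 a.m. ran from -5.28 to -1.25 with libraries left out, and was -4.88 with a pseudocount of 0.1. The mean number of members above 0 ran from 1.5 to 4.5, 4.0 to 7.5, 2.5 to 4.0 and 1.5 to 7.0 for TRAP 9 a.m., TRAP 9 p.m., supernatant 9 a.m. and supernatant 9 p.m.

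With the pool that TRAP and supernatant share as a replicate block, 0 members were called in each comparison of fractions, and the block changed no call of a member. The lowest adjusted p of any member was then 0.944 at 9 a.m., 0.882 at 9 p.m. and 0.634 over both times (limma). For the times, the numbers of the 2 groups share only a name (correlations of -0.00659 to 0.104), and the replicate block again gave 0 members called.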
